A study of Mus musculus with 6 samples.

Results

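The genes of cell division were followed in the adult mouse hippocampus through 40 members, chosen by name: 16 genes of S phase and DNA replication and 24 genes of mitosis. All 40 were found among the 37620 gene identifiers of the count tables. RNA was sequenced from 3 wildtype and 3 miR-17-92 knockout C57BL/6 mice, each 13 weeks old and each from a different litter. The series is about the part this microRNA cluster plays in adult hippocampal neurogenesis, anxiety and depression, and knockout against wildtype is its 1 comparison. The labels give genotype as the 1 difference between the groups. They do not say which bases of the cluster are missing, or in which cells.

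Replication begins when licensing proteins load the MCM helicase on DNA, after which a cyclin and its kinase fire the origins and the sliding clamp holds the polymerase on the strand. Mitosis follows under cyclin B and its kinase, with motor proteins and kinetochores moving the chromosomes and a separate set of proteins dividing the cell. In the adult hippocampus dividing cells are few: progenitors of granule neurons in the dentate gyrus, oligodendrocyte precursors, and some microglia and vascular cells. RNA of the whole tissue therefore holds little from any of them. Fewer dividing cells, less RNA per dividing cell and a change of member RNA in cells that do not divide cannot be told apart.

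The libraries held between 26439693 and 57246827 reads assigned to genes. Host transcript Mir17hg had 43, 47 and 36 reads in wildtype replicates 1, 2 and 3 and 30, 35 and 37 in knockout replicates 1, 2 and 3, so it was read in both genotypes, and its reads check the labels no further since the missing bases are not stated. Of 12 markers of hippocampal neurons 11 were read, Nptx1 among them at 796 to 930 CPM (reads of a gene per 1000000 reads assigned to genes, with TMM library sizes). The twelfth, Pou3f1, had 0 reads in all 6 libraries, where a count of 0 allows up to 3 by counting error alone. Whether its transcript was absent or was not counted was not tested. Knockout replicate 3 was the deepest library and knockout replicate 2 the shallowest.

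The microRNAs of the cluster are shown because matches to their seeds, bases 2 to 8, are looked for in the members. Their mature sequences (RefSeq, GRCm38.p6, chromosome 14, plus strand) are given 5′ to 3′ with the seed in capitals, and fall into 4 seed groups. The first group holds miR-17-5p and miR-20a-5p, the second miR-18a-5p, the third miR-19a-3p and miR-19b-3p, and the fourth miR-92a-3p.
miR-17-5p: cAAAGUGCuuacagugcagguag
miR-20a-5p: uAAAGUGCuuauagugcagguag
miR-18a-5p: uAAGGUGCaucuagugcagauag
miR-19a-3p: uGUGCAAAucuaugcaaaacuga
miR-19b-3p: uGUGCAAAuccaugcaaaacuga
miR-92a-3p: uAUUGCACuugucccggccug

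Of the 40 members 14 (35%) held at least 1 such 7-base match in their longest 3′ UTR, against 5094 of 14542 tested genes with a 3′ UTR (35%). The members with a match were Mcm3, Mcm7, Rrm1, Rrm2, Ccne2 and Gins2 of S phase, and Ccna2, Kif20a, Kif23, Tpx2, Nusap1, Ect2, Prc1 and Racgap1 of mitosis. Ect2, which starts the furrow that divides the cell, held 2 matches to the miR-17-5p seed, and in Rrm2, a subunit of the enzyme that makes deoxynucleotides, a miR-17-5p match and a miR-19a-3p match overlapped. These windows of 30 bases are shown with the match in capitals.
Ect2, first match: aaaatccagacaaaaGCACTTTagaaaaag
Ect2, second match: ggcacaaggttattgGCACTTTtagaagtc
Rrm2, miR-17-5p match: ttgtaaataaaattgGCACTTTgcacacac
Rrm2, miR-19a-3p match: aaataaaattggcacTTTGCACacacacac
Of the 14 members with a match 5 were higher and 9 lower in knockout mice, with a median log2 fold of -0.05. Rrm2 stood at a log2 fold of 0.04 and Ect2 at -0.47, and neither passed the test described below. A match is a description of the letters and not of a working site.

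Promoters were compared because the S phase and mitosis groups are known for different elements: the E2F site near replication genes, and the cell cycle homology region (CHR) with CCAAT boxes near mitosis genes. Windows of 250 bases before to 50 bases after the start site (RefSeq, GRCm38.p6) were found for 33 of the 40 members, 13 of S phase and 20 of mitosis. Both strands were searched for TTTCCCGC, TTTCGCGC, TTTGCCGC and TTTGGCGC as E2F, for TTTGAA as CHR, and for CCAAT. The E2F letters stood in 6 of 13 S phase members (46.2%), 1 of 20 mitosis members (5%, Cdk1) and 2.6% of 27025 genes. CHR letters stood in 1 of 13 S phase members (7.69%, Mcm2), 15 of 20 mitosis members (75%) and 20.2% of genes. CCAAT was present in 8 of 13 (61.5%), 18 of 20 (90%) and 41.1%.

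Cdc6, Mcm6, Ccnb2 and Aurka show the 2 arrangements, with every matched letter in capitals. In Mcm6 a forward and a reverse E2F match overlap, and another lies nearer the start. In Ccnb2 the 3 CCAAT boxes were each 33 bases apart and a CHR began at base 5 after the start. Aurka had 2 CCAAT boxes 32 bases apart and a CHR at base 33.
Cdc6, chr11:98907901-98908200, plus strand: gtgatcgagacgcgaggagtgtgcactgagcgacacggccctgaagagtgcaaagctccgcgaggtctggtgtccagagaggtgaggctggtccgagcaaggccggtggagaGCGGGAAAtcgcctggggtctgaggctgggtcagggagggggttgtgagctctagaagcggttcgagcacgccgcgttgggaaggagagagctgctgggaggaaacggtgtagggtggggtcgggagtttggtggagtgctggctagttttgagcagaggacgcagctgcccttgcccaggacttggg
Mcm6, chr1:128359656-128359955, minus strand: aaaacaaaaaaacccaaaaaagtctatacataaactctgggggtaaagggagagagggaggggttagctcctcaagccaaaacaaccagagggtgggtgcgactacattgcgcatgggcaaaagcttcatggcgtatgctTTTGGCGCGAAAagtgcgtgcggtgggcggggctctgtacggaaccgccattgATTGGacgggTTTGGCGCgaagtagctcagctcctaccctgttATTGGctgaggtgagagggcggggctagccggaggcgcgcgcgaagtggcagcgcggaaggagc
Ccnb2, chr9:70421505-70421804, minus strand: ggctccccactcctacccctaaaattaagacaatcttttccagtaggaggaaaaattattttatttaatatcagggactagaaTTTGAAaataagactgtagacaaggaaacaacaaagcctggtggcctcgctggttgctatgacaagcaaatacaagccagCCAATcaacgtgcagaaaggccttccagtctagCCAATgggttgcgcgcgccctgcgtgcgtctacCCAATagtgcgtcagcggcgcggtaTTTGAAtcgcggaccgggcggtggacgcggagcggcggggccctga
Aurka, chr2:172370521-172370820, minus strand: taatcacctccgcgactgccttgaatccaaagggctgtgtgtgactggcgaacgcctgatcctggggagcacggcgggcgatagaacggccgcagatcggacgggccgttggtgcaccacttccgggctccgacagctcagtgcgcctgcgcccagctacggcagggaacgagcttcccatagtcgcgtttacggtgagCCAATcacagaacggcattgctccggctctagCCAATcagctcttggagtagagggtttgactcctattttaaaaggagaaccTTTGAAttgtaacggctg
A CHR starting within 50 bases of the start site was found in 14 of the 20 mitosis members (70%), in 0 of 13 S phase members and in 5.72% of all genes. These are counts of letters in the reference, with no measurement of binding.

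**Figure D1:**
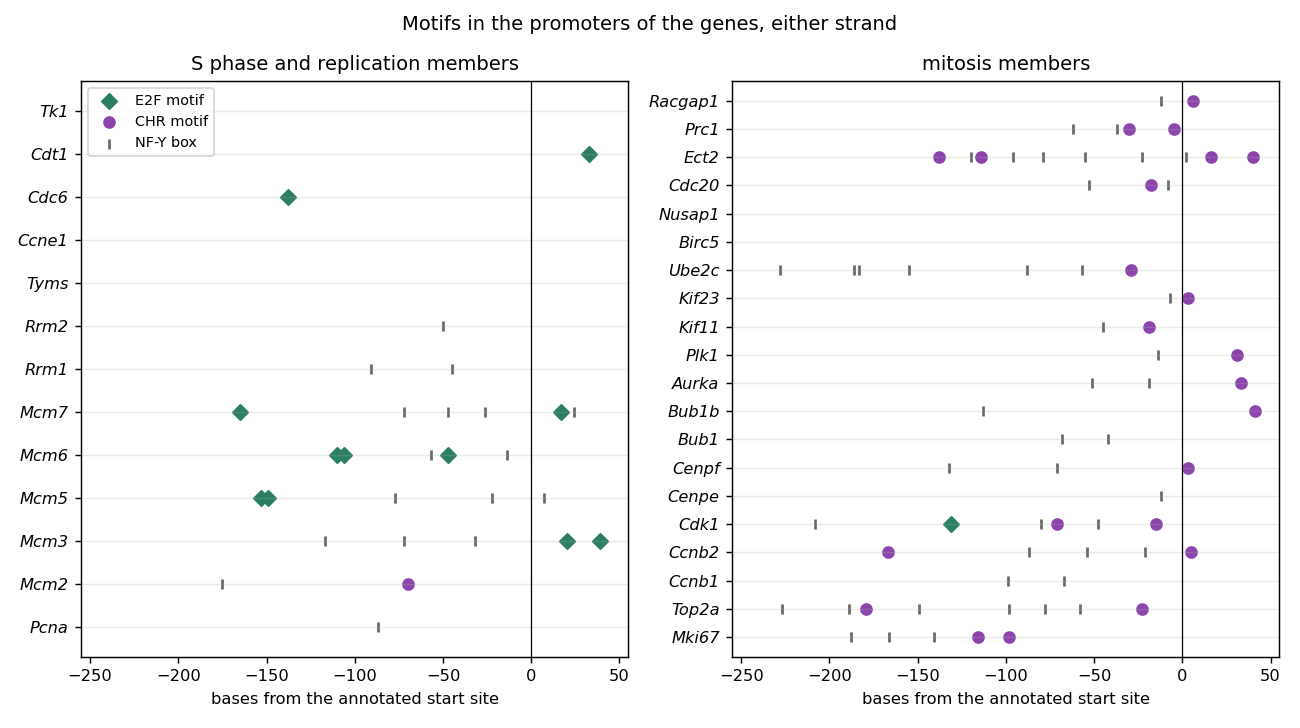
Positions of the E2F, CHR and CCAAT letters (x axis, bases from the start site) in the promoters of the members, 1 row per gene. Ect2, Mcm7 and Prc1 have 2 annotated starts, which are drawn in 1 row. CHR matches of mitosis members lie mostly near the start, with 14 of 20 genes holding one within 50 bases of it.

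Levels of the members were compared with each other per length, as CPM per kb of exon. Ccne1, a cyclin of the entry into S phase, was highest at 4.45, followed by Pcna, the sliding clamp, at 4.31 and Mcm6, a helicase subunit, at 3.88. Their ranges over the 6 mice overlapped: 4.04 to 5.01 for Ccne1, 3.60 to 5.20 for Pcna and 3.51 to 4.36 for Mcm6. With the length of the main coding transcript in place of all exons the order was Pcna (6.81), Mcm6 (6.21) and Ccne1 (5.92). Lowest by both lengths were the mitotic cyclin Ccnb1, at 0.0389 CPM per kb of exon, and its kinase Cdk1, at 0.0640. The median level was 1.02 CPM per kb for S phase members, 0.274 for mitosis members and 4.41 for all genes tested. The mitosis median includes Ccnb1 and Ube2c, which had too few reads to be tested, while 4.41 covers only genes with enough reads. Mitosis members were therefore the lower of the 2 groups, and both medians lay below that of the tested genes.

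**Figure D2:**
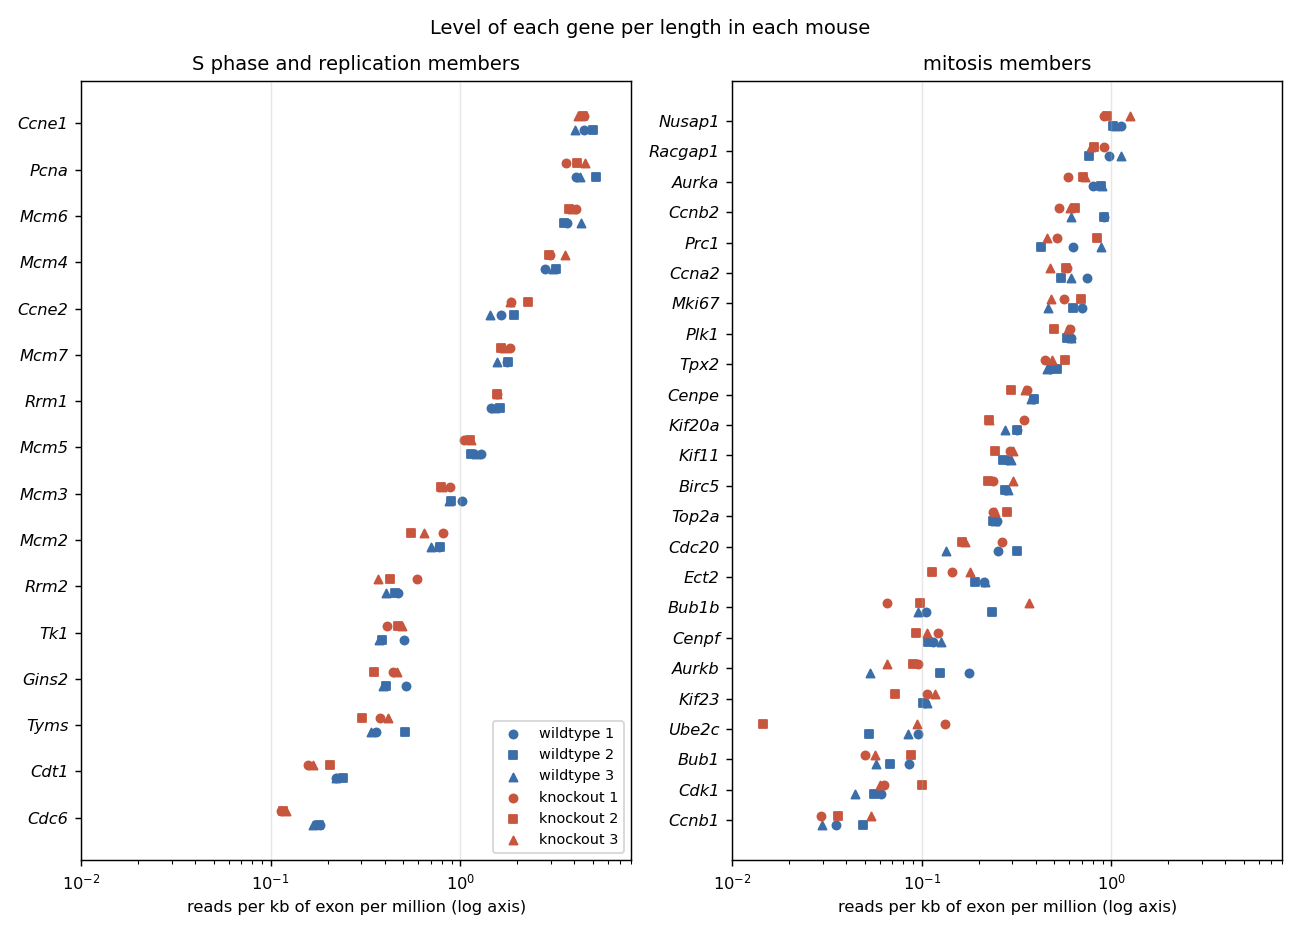
Level of each member in each of the 6 mice (CPM per kb of exon, log axis), wildtype and knockout points in different colours. S phase members, with a median of 1.02, sit above mitosis members, with a median of 0.274, and wildtype and knockout points overlap for most members.

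No member passed the test between genotypes. Of the 40 members 38 had enough reads to be tested, 16 of 16 of S phase and 22 of 24 of mitosis, the cyclin Ccnb1 and the ubiquitin-conjugating enzyme Ube2c being left out. With edgeR's quasi-likelihood test 0 of 38 had an adjusted p under 0.05, where 0% of 16432 tested genes had one. DESeq2 gave an adjusted p to 14 of the 38 and called 0 of them, against 1.33% of 12286 genes, and limma-voom called 0 of 38. An unadjusted p under 0.05 was reached by 1 of 38 members (2.63%) in edgeR, against 10.6% of all genes, and by 0 members in DESeq2. All 3 knockout mice lay below all 3 wildtype mice in 6 of 38 members (15.8%), against 8.34% of all genes. The 6 were Mcm5, Cdc6, Cdt1, Cenpe, Aurka and Ect2. All 3 knockout mice lay above in 0 of 38, against 8.29% of all genes.

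Each group is described by its counts and its median. Of the S phase members 7 were higher and 9 lower in knockout mice, with a median log2 fold of -0.05 and a range from -0.59 to 0.25. Of the mitosis members 5 were higher and 17 lower (77.3%), with a median of -0.11 and a range from -0.58 to 0.41. Over all 16432 genes 8218 were higher and 8214 lower, with a median of 0.00. The median standard error was 0.14 for S phase and 0.20 for mitosis members. The 95% interval lay inside a 1.5-fold change for 13 of 16 S phase and 9 of 22 mitosis members, and inside a 2-fold change for 15 of 16 and 17 of 22. It spanned 0 for 37 of 38.

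**Figure D3:**
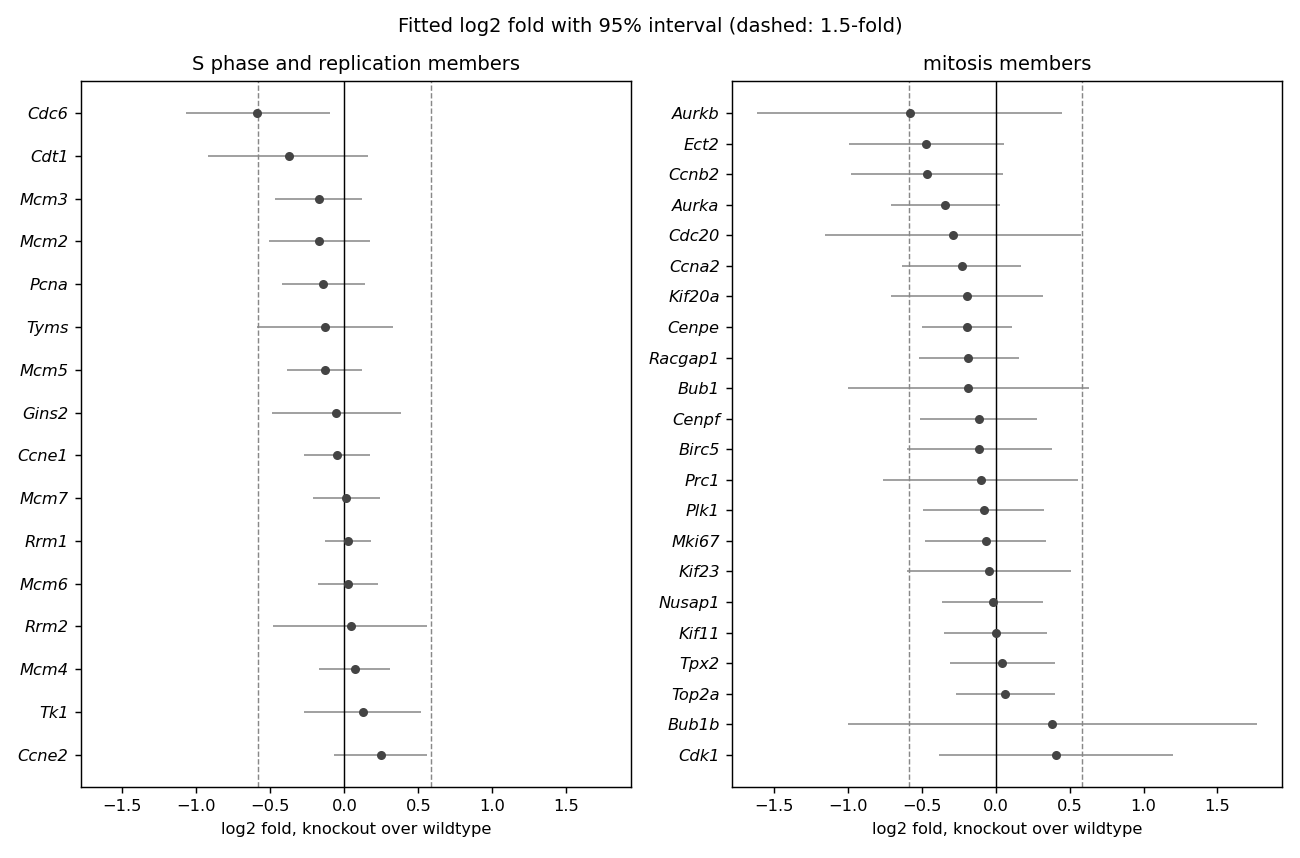
Log2 fold of knockout over wildtype for the 38 tested members (points) with the 95% interval of the edgeR fit (bars), S phase and mitosis members apart. Every bar but that of Cdc6 crosses 0, and the bars are wider among mitosis members.

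Summed over each group, S phase members gave 103, 109 and 102 CPM in wildtype replicates 1, 2 and 3 and 104, 102 and 106 in knockout replicates 1, 2 and 3 (105 ± 3.9 against 104 ± 2, SD, n = 3 each). The groups overlapped. Mitosis members summed to 49.9, 45.2 and 48.6 CPM in wildtype and 43.5, 45.7 and 43.6 in knockout mice (47.9 ± 2.4 against 44.2 ± 1.2, SD, n = 3 each). Knockout replicate 2 lay above wildtype replicate 2, so these groups overlapped as well. The mitosis sum was 0.485, 0.413 and 0.474 of the S phase sum in wildtype and 0.417, 0.449 and 0.413 in knockout mice, again with overlap.

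All 40 members together gave 153, 154 and 151 CPM in wildtype and 148, 147 and 149 in knockout mice (153 ± 1.7 against 148 ± 0.97, SD, n = 3 each). These sums did not overlap between genotypes. Each sum rests on 3881 to 8512 reads of the 40 genes, and the difference of the sums was not tested.

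**Figure D4:**
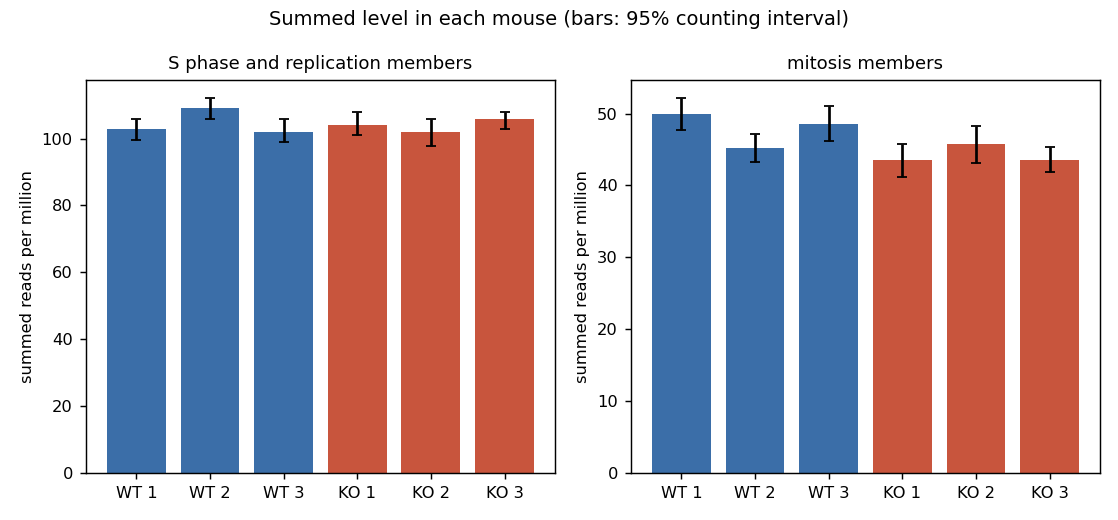
Summed CPM of the 16 S phase and the 24 mitosis members in each mouse (bars) with the 95% Poisson interval of the sum for counting error (error bars). S phase sums lie between 102 and 109 CPM and mitosis sums between 43.5 and 49.9, and the genotypes overlap in both.

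The sums are led by the most abundant members, so each tested gene was also given equal weight. The mean log2 deviation of mitosis members from their own means was 0.14, 0.08 and -0.04 in wildtype and -0.09, -0.08 and -0.02 in knockout mice. Wildtype replicate 3 lay between knockout replicates 3 and 2. The number of the 22 tested mitosis members above their own mean was 19, 13 and 11 in wildtype and 10, 6 and 7 in knockout replicates 1, 2 and 3. Of the 16 S phase members it was 10, 12 and 6 in wildtype and 9, 5 and 8 in knockout mice, where wildtype replicate 3 lay below 2 knockout mice. The mean log2 deviation, knockout minus wildtype, was -0.127 for mitosis and -0.076 for S phase members over all 6 libraries. For mitosis members it was -0.136 among the 3 deeper libraries (wildtype 1 and 2, knockout 3) and -0.047 among the 3 shallower ones, and for S phase members -0.099 and -0.004. The deeper set holds 1 knockout mouse and the shallower set 1 wildtype mouse, so the values of the sets are not compared, and the part of depth in the result was not tested.

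Among the S phase members the smallest p belonged to a licensing gene. Cdc6, which loads the helicase on origins, measured 0.947, 0.937 and 0.878 CPM in wildtype and 0.591, 0.607 and 0.631 in knockout replicates. The knockout mice were all lower, and no library overlapped with the other genotype. Its log2 fold was -0.59 (SE 0.21, 95% interval -1.07 to -0.10), with an unadjusted p of 0.0225 and an adjusted p of 0.398 in edgeR's test. Cdc6 rests on 16 to 41 reads a library, and its spread, a coefficient of variation of 4.01% in wildtype and 3.30% in knockout mice, was below the 16.9% and 21.7% that counting alone would give. Leaving out 1 library at a time gave log2 folds of -0.62 to -0.57.

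Cdt1, the partner of Cdc6 in licensing, measured 0.697, 0.754 and 0.690 CPM in wildtype and 0.497, 0.645 and 0.526 in knockout mice. It was also lower in every knockout mouse, by a log2 fold of -0.38 (SE 0.24) with an edgeR adjusted p of 0.614. Of the helicase subunits, Mcm5 had knockout values of 4.20 to 4.54 CPM below wildtype values of 4.55 to 5.16, so its highest knockout and lowest wildtype values were close to touching. Mcm2, another subunit, measured 5.41, 5.44 and 4.86 CPM in wildtype and 5.63, 3.83 and 4.49 in knockout mice. Its genotypes overlapped, since knockout replicate 1 was the highest of all 6. Mcm3, also a subunit, lay at 3.81, 3.36 and 3.29 CPM in wildtype and 3.33, 2.96 and 3.00 in knockout mice, with overlap at replicate 1 of the knockout. Log2 folds were -0.17 (SE 0.15) for Mcm2, -0.17 (SE 0.13) for Mcm3 and -0.13 (SE 0.11) for Mcm5. That of Mcm2 was -0.33 without knockout replicate 1 and -0.06 without knockout replicate 2, and that of Mcm3 was -0.11 without wildtype replicate 1. The other subunits lay nearer 0, with Mcm4 at 0.07, Mcm6 at 0.02 and Mcm7 at 0.01. Gins2, of the complex that activates the helicase, stood at -0.06, and 67.3% of its exon bases are shared with Gse1 on the other strand.

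Pcna, the clamp that tethers the polymerase, measured 9.81, 12.5 and 10.3 CPM in wildtype and 8.64, 9.87 and 10.9 in knockout mice. The genotypes overlapped, at a log2 fold of -0.14 (SE 0.12), and the edgeR adjusted p was 0.711. Leaving out 1 library moved the log2 fold of Pcna to -0.03 without wildtype replicate 2, -0.06 without knockout replicate 1 and -0.24 without knockout replicate 3. Among genes of nucleotide supply, Rrm2 had 1.30, 1.26 and 1.13 CPM in wildtype and 1.65, 1.18 and 1.02 in knockout mice. Both the highest and the lowest value of Rrm2 belonged to knockout mice. Rrm1, the other subunit of ribonucleotide reductase, was steady at 16.1 to 17.9 CPM across the 6 mice, with a log2 fold of 0.02 (SE 0.07). Tyms, which makes thymidylate, and Tk1, which salvages thymidine, stood at log2 folds of -0.13 (SE 0.20) and 0.12 (SE 0.17).

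Ccne2, 1 of the 2 E cyclins that drive entry into S phase, had the highest log2 fold of the S phase members. It measured 5.75, 6.69 and 5.02 CPM in wildtype and 6.50, 7.97 and 6.41 in knockout mice. Wildtype replicate 2 lay above knockout replicates 1 and 3, so the genotypes overlapped. The log2 fold was 0.25 (SE 0.14) and the edgeR adjusted p 0.575. It was 0.15 without wildtype replicate 3 and without knockout replicate 2, and 0.12 with offsets for GC content and length. Its relative Ccne1 measured 4.49, 5.01 and 4.04 CPM per kb of exon in wildtype and 4.50, 4.46 and 4.17 in knockout mice, which all lay inside the wildtype range, at a log2 fold of -0.05 (SE 0.10). Of the Ccne2 exon bases 17.4% are shared with Ints8 on the other strand.

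Mki67, the chromatin protein used as a mark of dividing cells, measured 7.05, 6.35 and 4.67 CPM in wildtype and 5.69, 6.94 and 4.84 in knockout mice. The lowest value was from wildtype replicate 3, and all knockout values lay inside the wildtype range. Its log2 fold was -0.07 (SE 0.18, edgeR adjusted p 0.926). Leaving out wildtype replicate 1 or knockout replicate 3 turned it to 0.06 in each case. Top2a, which untangles DNA before chromosomes part, was steady in wildtype at 2.24, 2.12 and 2.20 CPM and measured 2.15, 2.54 and 2.19 in knockout mice, a log2 fold of 0.06 (SE 0.15). Without knockout replicate 2 this was -0.01.

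Of the cyclin B genes and their kinase, Ccnb1 and Cdk1 were among the least read members and Ccnb2 was not. Ccnb2 measured 1.39, 1.39 and 0.941 CPM in wildtype and 0.808, 0.987 and 0.929 in knockout mice. Wildtype replicate 3 was within the knockout range, so the genotypes overlapped, with a log2 fold of -0.46 (SE 0.23) and an edgeR adjusted p of 0.521. Ccnb1 had 6, 9 and 4 reads in wildtype and 4, 4 and 13 in knockout mice, too few to be tested. Cdk1 had 12, 12 and 7 reads in wildtype and 10, 13 and 17 in knockout mice. Its log2 fold of 0.41 was the highest of the mitosis members, but with a standard error of 0.35 its interval ran from -0.38 to 1.20. Without knockout replicate 2, the mouse with the highest Cdk1 level, the log2 fold was 0.19. Ccna2, the cyclin of late S phase and early mitosis, stood at -0.23 (SE 0.18).

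Of the mitotic kinases and the chromosomal passenger proteins, Aurka, the kinase of the spindle poles, had the smallest p. It measured 2.02, 2.24 and 2.26 CPM in wildtype and 1.49, 1.78 and 1.84 in knockout mice. The genotypes did not overlap. The log2 fold was -0.34 (SE 0.16), the edgeR adjusted p was 0.507, and leaving out 1 library at a time gave -0.41 to -0.26. Aurkb, the passenger kinase, had the lowest log2 fold of the mitosis members at -0.58, on 5 to 21 reads a library and with an SE of 0.45. Plk1, a kinase of mitotic entry, and Birc5, a passenger subunit, stood at -0.08 (SE 0.18) and -0.11 (SE 0.22).

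At the kinetochore, the motor Cenpe measured 3.34, 3.38 and 3.23 CPM in wildtype and 3.08, 2.54 and 3.03 in knockout mice. All knockout values lay below all wildtype values, with a log2 fold of -0.20 (SE 0.13) and an edgeR adjusted p of 0.635. Without knockout replicate 2, its lowest mouse, the log2 fold was -0.12. Cenpf, of the outer kinetochore, and the checkpoint kinase Bub1 stood at -0.11 (SE 0.17) and -0.18 (SE 0.36). The checkpoint protein Bub1b, named after its values were seen, was the most uneven of the members. It measured 0.448, 1.01 and 0.408 CPM in wildtype and 0.280, 0.417 and 1.58 in knockout mice. The high values came from 1 mouse of each genotype, and the log2 fold of 0.38 (SE 0.61) ran from -0.87 without knockout replicate 3 to 0.94 without wildtype replicate 2.

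Among the proteins of cytokinesis, Ect2 measured 1.15, 1.03 and 1.16 CPM in wildtype and 0.777, 0.607 and 0.964 in knockout mice. Genotypes did not overlap, at a log2 fold of -0.47 (SE 0.23) with an edgeR adjusted p of 0.523. Prc1, which bundles microtubules at the midzone and was named after its values were seen, measured 5.16, 3.52 and 7.25 CPM in wildtype and 4.26, 6.94 and 3.77 in knockout mice. Its spread of 35.2% in wildtype and 34.3% in knockout mice was above the 7.18% and 7.86% of counting alone, and 11.1% of its exon bases are shared with Rccd1. The log2 fold of Prc1 was -0.10 (SE 0.29), and ran from -0.40 without knockout replicate 2 to 0.18 without wildtype replicate 3. Racgap1, the partner of Ect2, and the motors Kif20a and Kif23 stood at -0.18 (SE 0.15), -0.20 (SE 0.23) and -0.05 (SE 0.24). Spindle proteins lay near 0: the motor Kif11 at 0.00, Tpx2, which activates Aurka, at 0.04, and Nusap1, which bundles microtubules, at -0.02. Cdc20, which activates the anaphase-promoting complex, stood at -0.28 (SE 0.38). Its partner Ube2c had 10, 6 and 7 reads in wildtype and 11, 1 and 14 in knockout mice, and was not tested.

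The spread between mice was near the counting error for many members. The median coefficient of variation of S phase members was 7.59% in wildtype and 10.3% in knockout mice, beside 7.22% and 7.96% from counting alone. For mitosis members it was 11.6% and 18.2%, beside 14.1% and 15.5%. It was over 2 times the counting value for 5 S phase members in wildtype and 3 in knockout mice. Of the mitosis members 4 and 5 were over it. Pcna, Mki67, Bub1b and Prc1 were over it in both genotypes, with Mki67 at 20.3% and 18.2% beside 6.55% and 7.18%. Of the 40 members 12 share exon bases with another gene and 4 have a named pseudogene (Pcna, Tyms, Ccnb1 and Ccnb2), and the strand setting of the counting is not given in the sources used here.

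Further genes of the pathway were listed by function. Of 40 other replication genes 39 were tested, of which 16 were higher and 23 lower, with a median log2 fold of -0.02, and 0 were called with edgeR or DESeq2. Pola2, a subunit of the primase complex, had the smallest p, with wildtype values of 5.46, 5.80 and 5.11 CPM above knockout values of 4.07, 4.74 and 4.10. Its log2 fold was -0.35 (SE 0.12, edgeR adjusted p 0.366). Wdhd1, which links helicase and polymerase, stood at -0.56 (SE 0.20, edgeR adjusted p 0.398) and Orc4, of the origin recognition complex, at 0.15 (SE 0.06, edgeR adjusted p 0.427). Of 50 other mitosis genes 44 were tested, of which 13 were higher and 31 lower, with a median of -0.11, and 0 were called with either tool. Those of smallest p were Cks1b, a subunit of cyclin kinases, at -0.61 (SE 0.22, edgeR adjusted p 0.398), Espl1, the protease that parts sister chromatids, at -0.62 (SE 0.23, edgeR adjusted p 0.404), and Spag5, a spindle protein, at 0.22 (SE 0.08, edgeR adjusted p 0.409).

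Markers of the cells that could divide were read in every library. Those of neural stem and progenitor cells summed to 181 to 197 CPM in wildtype and 171 to 203 in knockout mice, with 3 of 12 higher and 9 lower. That sum was led by Ednrb, at 54.7 to 64.3 CPM, Hopx, at 35.2 to 53.8, and Sox2, at 22.5 to 35.3. Whether these leading markers were read from progenitors or from other cells of the tissue was not tested, so the sum is no measure of progenitors. The markers of lowest level, Eomes, Neurog2 and Tfap2c, added little to it, with wildtype means of 0.799, 1.28 and 0.344 CPM. Their log2 folds were -0.70 (SE 0.34), -0.40 (SE 0.41) and -0.52 (SE 0.36), and their genotypes overlapped. Newborn neuron markers summed to 394 to 410 and 384 to 392 CPM, with 5 of 10 lower, and these sums did not overlap. Tubb3 led the sum, at 198 to 205 CPM in wildtype and 181 to 196 in knockout mice, itself without overlap. Whether Tubb3 was read from newborn or from mature neurons was not tested, so the sum is no measure of newborn neurons. The other markers went both ways, with log2 folds of -0.20 for Dcx and -0.24 for Sox4, and 0.14 for Neurod1 and 0.13 for Calb2. Those of oligodendrocyte precursors, Bcas1 among them, summed to 386 to 402 and 376 to 398, with 5 of 9 lower. Microglial markers, Csf1r among them, summed to 371 to 394 and 358 to 378, with 7 of 10 lower. Aif1, also a microglial marker, was higher in every knockout mouse, at a log2 fold of 0.88 (SE 0.12, edgeR adjusted p 0.072). Endothelial markers, Slc2a1 among them, summed to 265 to 299 and 272 to 282, with 6 of 10 lower. Meningeal markers, Ptgds among them, summed to 275 to 318 in wildtype and 386 to 476 in knockout mice, with 10 of 10 higher. Their sums did not overlap between genotypes either. Markers of the choroid plexus summed to 167 to 195 and 159 to 167, led by Enpp2, at 122 to 160 CPM over the 6 mice. Among them Ttr was uneven, at 39, 4.87 and 2.48 CPM in wildtype and 1.55, 4.14 and 5.73 in knockout mice. The cause of its high value in wildtype replicate 1 was not tested. Markers of ependyma summed to 43.2 to 45.2 and 42.7 to 47, and of blood to 18.4 to 30.9 and 16.1 to 21.4, where the T cell gene Cd3e was at or near 0 throughout. No marker was called with edgeR. DESeq2 called 1 microglial, 1 endothelial, 3 meningeal and 1 hippocampal neuron marker, all higher, against 1.33% of 12286 genes called. The part of these cells in the values of the members was not tested.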

How the data were processed

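Hippocampal RNA of 3 wildtype and 3 knockout mice was analysed from raw read counts per gene, deposited by the authors as 1 table per mouse. The submitters' processing notes name build mm9 and, in no order, HTSeq, SAMtools, DESeq2, STAR 2.3.0e and FastQC 0.10.1. Annotation and strandedness are not given there. The 5 rows naming no gene (38% to 40.3% of each file) were left out. Of 37620 identifiers 32897 matched a GENCODE M21 symbol; exon lengths and 3′ UTRs came from that annotation (GRCm38), and promoters and microRNAs from RefSeq.

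Genotype was tested with edgeR 4.0.16 (R 4.3.3; filterByExpr, TMM, quasi-likelihood, Benjamini-Hochberg at 0.05 over all genes tested); the script was tested on simulated data. Alternatives used DESeq2 1.42.0, limma 3.58.1, other scalings and filters, GC and length offsets, a replicate block, and each library left out. The main transcript length, the depth sets and the counts of lower members were added after seeing the data. The sum over all members was not in the plan. The members and lists were chosen with earlier results of these data known. Named genes were Mki67, Top2a, Cdk1, Ccnb1, Ccnb2, Pcna, Mcm2, Rrm2, the 4 of smallest p per group, the 2 highest and 2 lowest levels, and the 3 of smallest p per further list; other members are given by role. Intervals on summed reads cover counting error only. Separate litters make the mice separate samples.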

Additional observations from a re-analysis of the deposited data

Results flagged for a closer look

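Reads placed at several sites, which enter no gene count, made up 20.2%, 21.0% and 20.9% of the file total in wildtype replicates 1, 2 and 3 and 21.2%, 22.6% and 21.6% in knockout replicates 1, 2 and 3. The knockout mean of 21.8% (SD 0.71, n = 3) was above the wildtype mean of 20.7% (SD 0.41, n = 3), with no overlap between the mice. An exact permutation of the labels, two-sided, returned p = 0.1, which 3 mice against 3 cannot go below. These reads are given here because they lie outside the gene counts on which the members were compared.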

How the results depend on the processing

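No member and no further pathway gene was called under any of the 14 alternatives. Over all genes the count called went from 0 to 62 without a filter and to 164 with DESeq2, and ranged from 0 to 17 when 1 library was left out (17 without knockout replicate 3, 16 without wildtype replicate 2, 2 each without replicate 1 of either genotype). The median log2 fold of S phase members ranged from -0.13 (without wildtype replicate 3) to 0.00 (without wildtype replicate 2) over the fits without 1 library, and that of mitosis members from -0.13 to -0.07. With a filter of 1 CPM in 3 libraries 11 of 14 tested mitosis members were lower. Of the 15 tested members chosen by the naming rule 4 turned direction in fits without 1 library, and of the 23 others 12 did (Mcm4, Mcm6, Mcm7, Rrm1, Tyms, Gins2, Bub1b, Kif11, Kif23, Tpx2, Nusap1 and Prc1). Of the 4, Mki67 ranged from -0.22 to 0.06 (0.06 without wildtype replicate 1 and without knockout replicate 3), Top2a from -0.01 (without knockout replicate 2) to 0.10, Ccne1 from -0.12 to 0.03 (without wildtype replicate 2), and Rrm2 from -0.18 (without knockout replicate 1; -0.01 without wildtype replicate 3) to 0.21. With limma-voom Rrm2 stood at -0.02. The cause was not tested. Same-numbered mice did not deviate together (correlations of -0.104, -0.0207 and -0.152). With the replicate block 0 members and 0 of all genes were called, 9 S phase and 18 mitosis members were lower, and the medians were -0.05 and -0.13. Depth limits the members: the median total over 6 libraries was 291 reads for mitosis and 1110 for S phase members.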
